A study of Homo sapiens with 11 samples.

Results

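Integrin chains were measured on a NanoString panel in the monocytic line THP-1 and in its PMA-derived macrophages, with and without dexamethasone (Dex), a synthetic glucocorticoid. The 10 chains were taken by name from the 594 endogenous genes of the value table, and no other gene of the table had a name starting with ITG. They were 8 alpha chains (ITGA2B, ITGA4, ITGA5, ITGA6, ITGAE, ITGAL, ITGAM and ITGAX) and 2 beta chains (ITGB1 and ITGB2). THP-1 is a human leukaemia cell line, so all groups share 1 genetic background and none holds primary monocytes or tissue macrophages. Macrophages were made with PMA, a phorbol ester, for 3 h followed by 24 h of recovery. Cells of both states were then kept for 24 h in charcoal-stripped medium, which holds little hormone, and received vehicle or 100 nM Dex for 6 h. Monocytes had 3 samples with vehicle (Mono_Vehicle) and 3 with Dex (Mono_Dex), and macrophages had 3 with vehicle (Mac_Vehicle) and 2 with Dex (Mac_Dex). Another Mac_Dex sample had been dropped by the authors because it clustered with controls and its FKBP5, a direct glucocorticoid target, was not raised.

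Integrins are cell surface receptors made of 1 alpha and 1 beta chain, and they bind matrix proteins, complement fragments or adhesion molecules on other cells. ITGB2 pairs with ITGAL, ITGAM and ITGAX in the leukocyte integrins, which carry firm adhesion to the vessel wall, uptake of complement-coated particles and contact with other immune cells. ITGB1 pairs with ITGA4, ITGA5 and ITGA6 in receptors for vascular cell adhesion molecule and fibronectin, for fibronectin, and for laminin. ITGAE and ITGA2B pair with beta chains other than these and mark mucosal lymphocytes and platelets, respectively.

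RefSeq promoter entries (assembly GRCh38.p14) matched 7 of the 10 chains. The searched window held 250 bases before and 50 bases after the annotated start. ITGA5 is shown because Dex moved it up in both cell states, ITGA4 because Dex moved it down in both, and ITGAM because it was among the chains with the widest gap between the states. The lines below give the first 260 bases of each window, 5′ to 3′ along the gene. Capitals mark matches to AP-1 (TGANTCA), PU.1 (GAGGAA), Sp1 (GGGCGG) or the palindromic glucocorticoid response element (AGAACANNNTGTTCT) on either strand.
ITGA5: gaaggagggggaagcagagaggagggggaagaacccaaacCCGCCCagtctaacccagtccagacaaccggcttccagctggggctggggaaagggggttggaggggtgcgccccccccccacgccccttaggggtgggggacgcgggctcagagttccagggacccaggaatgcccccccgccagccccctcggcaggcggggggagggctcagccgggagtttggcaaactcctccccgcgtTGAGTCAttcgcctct
ITGA4: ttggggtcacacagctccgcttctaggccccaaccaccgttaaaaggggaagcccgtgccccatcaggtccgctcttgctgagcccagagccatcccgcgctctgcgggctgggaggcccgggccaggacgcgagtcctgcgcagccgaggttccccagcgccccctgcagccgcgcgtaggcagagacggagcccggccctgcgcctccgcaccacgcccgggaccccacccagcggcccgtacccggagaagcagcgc
ITGAM: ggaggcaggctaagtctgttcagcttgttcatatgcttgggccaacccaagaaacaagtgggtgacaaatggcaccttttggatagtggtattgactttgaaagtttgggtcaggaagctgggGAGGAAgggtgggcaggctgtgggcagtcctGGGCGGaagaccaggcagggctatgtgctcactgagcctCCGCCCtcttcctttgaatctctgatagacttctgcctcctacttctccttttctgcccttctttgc
The ITGA5 stretch is chr12:54419257-54419516 on the minus strand. The ITGA4 stretch is chr2:181457136-181457395 and the ITGAM stretch chr16:31259725-31259984, both on the plus strand. In ITGA5 the letters TGAGTCA lay from base -6 to base 1, across the start, and an Sp1 match lay at -210 to -205. In ITGAM a PU.1 match lay at -127 to -122, with Sp1 matches at -96 to -91 and -57 to -52. Another PU.1 match of ITGAM, at 30 to 35, fell past the printed stretch, and the ITGA4 window held none of the 4 motifs. No match overlapped another. The 7 chains with an entry had 9 windows, and a chain was counted if any of its windows held a match. Of these 7 chains, 1 had an AP-1 match, 3 a PU.1 match, 4 an Sp1 match and 0 the glucocorticoid response element. Over all 35116 windows, counted singly and not per gene, AP-1 letters occurred in 7.709%, PU.1 in 27.853%, Sp1 in 44.954% and the glucocorticoid response element in 0.003%. ITGAL, ITGAX and ITGB2 had no entry.

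The values are a linear signal in units that the authors had background-subtracted and scaled per sample. Before that scaling, monocyte samples summed to 412607 to 565445 net counts and macrophage samples to 551821 to 675269. The scaling factor was 0.659 to 0.966 for monocyte samples and 1.21 to 1.52 for macrophage samples, so differences between the states depend on it. A level of 20 units was taken as the floor. The highest negative control reached 15.6, in Mac_Vehicle replicate 1. Control values did not carry the sample factor, so 15.6 is a net count and not in the units of the floor. With the factor of that sample (1.21) it would lie closer to the floor. FKBP5 lay at 1205 to 1259 in Mono_Vehicle and 24832 to 24990 in Mono_Dex, and at 407 to 623 in Mac_Vehicle and 37306 to 38036 in Mac_Dex. Replicates of a group correlated at 0.984 to 0.992. Of the 11 monocyte and macrophage markers in the table, 7 lay at or above the floor in each monocyte group and 10 in each macrophage group. MRC1, a mannose receptor of macrophages, stayed under the floor in all 4 groups. T cell markers (10) and NK cell markers (6) were under the floor in every group. In bulk RNA, fewer cells of a type and less RNA per cell cannot be told apart.

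**Figure D1:**
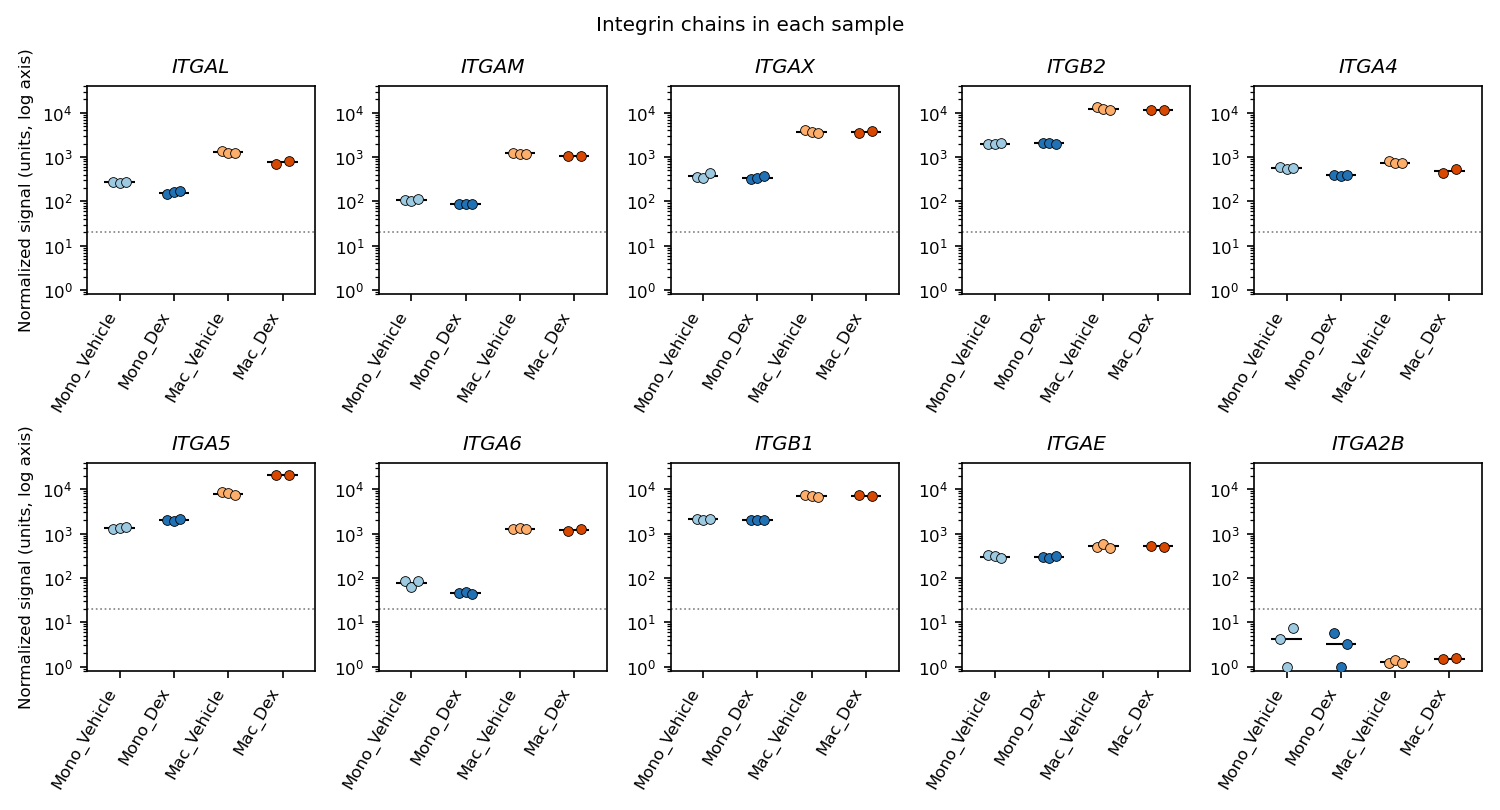
Normalized signal (units, log axis) of the 10 integrin chains in each of the 11 samples, with points for samples, bars for group means and a dotted line at 20 units. ITGA2B lies under the line throughout, and ITGA5 climbs from group to group up to 20571 and 20617 units in Mac_Dex.

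ITGA2B, the alpha chain of the platelet fibrinogen receptor, stayed under 20 units in every sample. It lay at 4.19, 1.00 and 7.22 units in Mono_Vehicle and at 5.57, 1.00 and 3.26 in Mono_Dex. The macrophage samples held 1.21, 1.42 and 1.22 units with vehicle and 1.47 and 1.52 with Dex. No fold is given for it and it was not tested, which left 9 chains among the 379 genes tested. Of the other megakaryocyte and platelet markers in the table, TAL1 was also under the floor in all groups. GP1BB reached 27.8 and 41.6 units only in the monocyte groups and PPBP 42.8 and 37.2 only in the macrophage groups.

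Among the partners of ITGB2, ITGAL fell with Dex in both cell states, while ITGB2 itself passed the test in neither. ITGAL, the alpha chain of the leukocyte integrin that binds ICAM proteins, lay at 270.1, 259 and 277 units in Mono_Vehicle and at 146, 159 and 168 in Mono_Dex. In macrophages it lay at 1381, 1206 and 1239 units with vehicle and at 709 and 808 with Dex. The groups did not overlap in either state. Its mean fell by 41.3% in monocytes (log2 change -0.77, SE 0.08, adjusted p = 3.98e-06) and fell by 40.5% in macrophages (-0.75, SE 0.09, adjusted p = 1.04e-05).

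ITGAM, the alpha chain of a complement receptor of phagocytes, lay at 110.0, 103 and 111 units in Mono_Vehicle and at 85.2, 86.3 and 88.7 in Mono_Dex. All 3 Dex samples were lower than all 3 vehicle samples, and the log2 change of -0.31 (SE 0.07) passed the test with an adjusted p of 0.00387. That call was lost when samples were centred on their medians (-0.17, adjusted p = 0.124) and with net counts before scaling (-0.38, adjusted p = 0.204). In macrophages ITGAM lay at 1256, 1176 and 1183 units with vehicle and at 1062 and 1083 with Dex. Both Dex samples were again lower, but the log2 change of -0.17 (95% interval -0.35 to 0.01) did not pass, with an adjusted p of 0.114. This macrophage change passed under quantile normalization (-0.22, adjusted p = 0.0251) and with housekeeping scaling (-0.18, adjusted p = 0.0475). It also passed with no floor (adjusted p = 0.045) or no trend in the fit (adjusted p = 0.0379). When samples were centred on their medians it turned to 0.06.

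ITGAX, the alpha chain of a second complement receptor and a common marker of dendritic cells and macrophages, lay at 364, 343 and 441 units in Mono_Vehicle and at 314, 341 and 368 in Mono_Dex. Macrophage samples held 4003, 3699 and 3425 units with vehicle and 3431 and 3767 with Dex. Vehicle and Dex samples overlapped in both states. The log2 change was -0.16 in monocytes (95% interval -0.36 to 0.04, adjusted p = 0.207) and -0.04 in macrophages (-0.26 to 0.18, adjusted p = 0.766).

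ITGB2, the shared beta chain, lay at 1949, 1996 and 2079 units in Mono_Vehicle and at 2079, 2066 and 2013 in Mono_Dex. The 2 monocyte groups overlapped, with a log2 change of 0.03 (95% interval -0.08 to 0.14, adjusted p = 0.666). In macrophages it lay at 13432, 12193 and 11564 units with vehicle and at 11207 and 11220 with Dex. Both Dex values were lower than all vehicle values, and the log2 change of -0.14 (95% interval -0.27 to -0.02) had an adjusted p of 0.0563. It passed without Mac_Vehicle replicate 5 (-0.19, adjusted p = 0.00634), under quantile normalization (-0.41, adjusted p = 3.71e-06) and with housekeeping scaling (-0.15, adjusted p = 0.00668), and it turned to 0.08 when samples were centred on their medians.

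Among the partners of ITGB1, ITGA5 rose with Dex and ITGA4 fell with Dex in both cell states, and ITGA6 fell in monocytes. ITGA5, the alpha chain of the main fibronectin receptor, lay at 1281, 1312 and 1383 units in Mono_Vehicle and at 1990.4, 1962 and 2073 in Mono_Dex. Macrophage samples held 8521, 8012 and 7286 units with vehicle and 20571 and 20617 with Dex. The 4 groups followed each other in that order without overlap. Dex raised the mean 1.52-fold in monocytes (log2 change 0.60, SE 0.05, adjusted p = 6.77e-07) and 2.59-fold in macrophages (1.38, SE 0.06, adjusted p = 3.75e-10). Under quantile normalization the macrophage change was 0.82 on the log2 scale.

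ITGA4, an alpha chain used in adhesion to vascular cell adhesion molecule and fibronectin, lay at 584, 544 and 575 units in Mono_Vehicle and at 401, 366 and 401 in Mono_Dex. In macrophages it lay at 804, 721 and 716 units with vehicle and at 447 and 531 with Dex. Every Dex sample was lower than every vehicle sample of its state. The log2 change was -0.54 (SE 0.08, adjusted p = 7.11e-05) in monocytes and -0.61 (SE 0.09, adjusted p = 4.46e-05) in macrophages, and the mean fell by 31.4% and fell by 34.5%, respectively. With samples centred on their medians the macrophage change was -0.39.

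ITGA6, an alpha chain of laminin receptors, lay at 83.3, 62.2 and 84.3 units in Mono_Vehicle and at 46.1, 48.6 and 44.3 in Mono_Dex. Mono_Vehicle replicate 3 was the lowest of its group and still above every Dex sample. The log2 change in monocytes was -0.70 (SE 0.12, adjusted p = 0.000233). Macrophage samples held 1235, 1359 and 1251 units with vehicle and 1157 and 1253 with Dex, which overlapped. The change there was -0.09 (95% interval -0.37 to 0.19, adjusted p = 0.606).

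ITGB1, the shared beta chain of the matrix receptors, lay at 2085, 2044 and 2105 units in Mono_Vehicle and at 2055, 1996 and 2062 in Mono_Dex. In macrophages it lay at 7486, 7150 and 6591 units with vehicle and at 7234 and 7035 with Dex. Vehicle and Dex values overlapped in both states, and the 95% intervals of the log2 change were -0.13 to 0.07 in monocytes (adjusted p = 0.674) and -0.10 to 0.13 in macrophages (adjusted p = 0.859). Under quantile normalization ITGB1 was called lower with Dex in monocytes (-0.15, adjusted p = 0.0011) and in macrophages (-0.12, adjusted p = 0.0115). In macrophages a call of the opposite sign appeared when samples were centred on their medians (0.24, adjusted p = 0.0152).

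ITGAE, an alpha chain known from lymphocytes of the gut lining, where it binds E-cadherin, lay at 323, 304 and 276 units in Mono_Vehicle and at 291, 285 and 310.0 in Mono_Dex. Macrophage samples held 490, 566 and 477 units with vehicle and 525 and 499 with Dex. Dex and vehicle samples overlapped in both states, with log2 changes of -0.02 (95% interval -0.21 to 0.16, adjusted p = 0.858) and 0.01 (-0.20 to 0.21, adjusted p = 0.973).

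Across the 9 chains tested in monocytes, Dex raised 1 and lowered 4. Over all 379 genes tested, 16.9% were called higher and 22.2% lower. The chains' median log2 change was -0.16, beside -0.03 over all genes. In macrophages Dex raised 1 chain and lowered 2, where 22.4% of all genes were called higher and 25.1% lower, and the medians were -0.09 and -0.03. Of the genes called in monocytes, 43.2% were higher, which became 61.5% with samples centred on their medians and 32.5% with net counts before scaling. In macrophages the share was 47.2%, which became 67.3% and 29%. The calls for ITGA5, ITGA4 and ITGAL in both states, and for ITGA6 in monocytes, kept their sign and passed under all 4 other scalings, including these 2, and with each sample left out in turn.

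**Figure D2:**
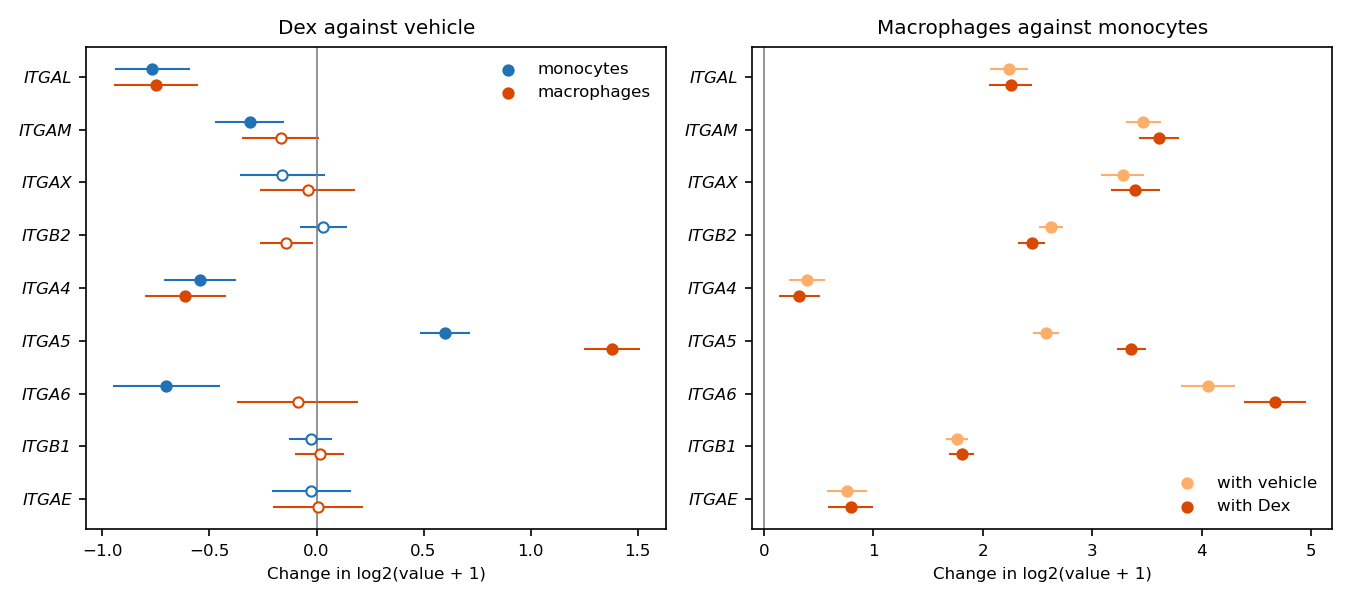
Change in log2(value + 1) of the 9 tested integrin chains, with 95% intervals. Left, Dex against vehicle in monocytes (blue) and macrophages (red), where filled points passed an adjusted p of 0.05 and open points did not; ITGA5 is the only chain to the right of 0 with a filled point. Right, macrophages against monocytes with vehicle (light) and with Dex (dark), from 0.33 for ITGA4 to 4.67 for ITGA6 on the deposited scale; ITGA4 and ITGAE turned below 0 under other scalings.

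The response to Dex itself differed between macrophages and monocytes for 2 chains, ITGA5 and ITGA6, by the interaction term of the fit. The ITGA5 response was larger in macrophages by 0.78 on the log2 scale (SE 0.08, adjusted p = 7.96e-06). Under quantile normalization that difference was 0.26 (adjusted p = 0.0113), and with net counts before scaling it was 0.63 and did not pass (adjusted p = 0.092). For ITGA6 the response in macrophages minus that in monocytes was 0.61 (SE 0.17, adjusted p = 0.0202), with a fall in monocytes and a macrophage change that did not pass. Without Mac_Dex replicate 5 the ITGA6 difference was 0.56 (adjusted p = 0.0735), and it did not pass under quantile normalization (0.28, adjusted p = 0.352) or with net counts before scaling (0.46, adjusted p = 0.523).

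ITGAL and ITGA4, the chains that fell in both states, had differences of 0.02 (95% interval -0.25 to 0.28, adjusted p = 0.93) and -0.07 (-0.32 to 0.18, adjusted p = 0.71). ITGB2 had a difference of -0.17 (-0.34 to -0.01) with an adjusted p of 0.122. That difference passed without Mac_Vehicle replicate 5 (-0.22, adjusted p = 0.0219), under quantile normalization (-0.35, adjusted p = 0.000565) and with housekeeping scaling (-0.21, adjusted p = 0.0113). It did not pass when samples were centred on their medians (-0.10, adjusted p = 0.546) or with net counts before scaling (-0.33, adjusted p = 0.563). Over all genes, 13.5% were called with a higher and 12.4% with a lower response in macrophages. The median difference was 0.04 for the chains and 0.02 for all genes.

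All 9 tested chains were higher in macrophages than in monocytes on the deposited scale, but ITGA4 and ITGAE turned negative under at least 2 of the 4 other scalings. ITGA4 with vehicle was called lower with centring (adjusted p = 8.61e-07) and quantile normalization (adjusted p = 5.41e-07). No negative value of ITGAE passed, with vehicle (adjusted p = 0.152 with centring and 0.194 with quantile normalization) or with Dex. With vehicle, ITGA6 was 16.7-fold higher (log2 change 4.06, SE 0.12, adjusted p = 2.36e-13), ITGAM 11.2-fold (3.47, SE 0.07, adjusted p = 9.46e-15) and ITGAX 9.69-fold (3.28, SE 0.09, adjusted p = 1.89e-13). Both beta chains were higher, ITGB2 6.17-fold and ITGB1 3.41-fold. ITGA5 was 5.99-fold and ITGAL 4.74-fold higher. On the deposited scale the groups of the 2 states did not overlap for any of the 9 chains. The share of all genes without overlap was not computed, so this count is not read as particular to the chains.

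ITGAE was 1.70-fold and ITGA4 1.32-fold higher with vehicle. Their log2 changes of 0.76 and 0.39 lay near and below the median of 0.72 over all genes tested, while the median of the chains was 2.58. Of all genes, 65.2% were called higher and 19.5% lower in macrophages with vehicle. With samples centred on their medians, the all-gene median became -0.20, ITGAE -0.15 and ITGA4 -0.52. Quantile normalization gave -0.24, -0.13 and -0.58 for the same 3 values, and net counts before scaling 0.08, 0.10 and -0.27. The other 7 chains were higher and called under all 4 other scalings, with ITGA6 at 3.14 to 3.74, ITGAM at 2.55 to 3.15, ITGAX at 2.32 to 2.96, ITGA5 at 1.44 to 2.26, ITGAL at 1.32 to 1.92, ITGB1 at 0.59 to 1.44 and ITGB2 at 1.53 to 2.30 on the log2 scale.

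With Dex the gap between the states was 26.0-fold for ITGA6 (log2 change 4.67, SE 0.13), 12.4-fold for ITGAM (3.61, SE 0.08), 10.5-fold for ITGAX (SE of the log2 change 0.10) and 10.3-fold for ITGA5 (3.36, SE 0.06). ITGB2, ITGAL and ITGB1 were 5.46-fold, 4.81-fold and 3.50-fold higher. Under the other scalings the log2 gap ran from 1.70 to 3.004 for ITGA5, from 1.18 to 2.10 for ITGB2, from 1.29 to 1.905 for ITGAL and from 0.63 to 1.45 for ITGB1. ITGAE was 1.73-fold and ITGA4 1.26-fold higher on the deposited scale, and ITGA4 was negative under all 4 other scalings, from -0.52 to -0.03. The ITGA4 call was also lost without Mac_Dex replicate 5 (0.20, adjusted p = 0.0758). Of all genes, 61.7% were called higher and 17.9% lower, with medians of 2.45 for the chains and 0.75 for all genes. Each of these comparisons between the states shares samples with both Dex responses.

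**Figure D3:**
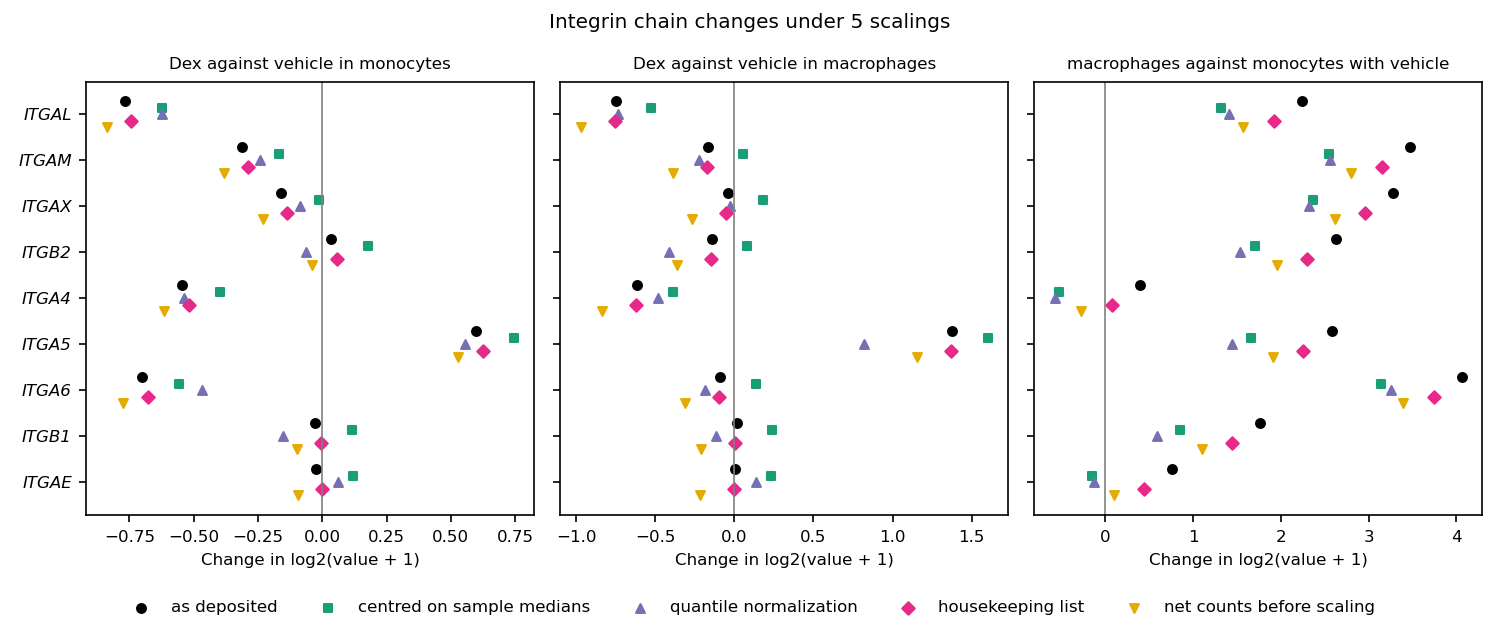
Change in log2(value + 1) of the 9 tested chains under the deposited scaling and 4 others, in panels for Dex in monocytes, for Dex in macrophages and for vehicle-treated macrophages against monocytes. ITGA5, ITGAL and ITGA4 stay on 1 side of 0 in both Dex panels, and in the state panel ITGA4 and ITGAE reach or cross 0 while the other 7 stay above it.

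The summed signal of the monocyte and macrophage markers was also higher in macrophages. It ran from 3070.4 to 3227 units in Mono_Vehicle and from 2706 to 2751 in Mono_Dex, against 25036 to 27625 in Mac_Vehicle and 25101 to 26633 in Mac_Dex. MSR1, a scavenger receptor of macrophages, went from a mean of 1.00 unit in Mono_Vehicle to 9677 in Mac_Vehicle. CD36, a scavenger receptor, went from 925 to 9496 units, and with MSR1 and CYBB it made up most of the sum in the macrophage groups. Not every marker was higher in macrophages, since the Fc receptor FCGR2A had means of 1165 units in Mono_Vehicle and 425 in Mac_Vehicle. FCGR1A/B, another Fc receptor, had means of 162 and 70.05 units in the same groups. The part of these markers, and of the larger sample factor in macrophages, in the chains' state differences was not tested. With Dex, CD14 had means of 53.5 and 18.3 units in the 2 monocyte groups and 188 and 43.9 in the 2 macrophage groups, and CD163 had 1.00 and 39.3, and 177 and 653.

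The log2 ratio of an alpha chain to its beta chain within a sample is not changed by a single scaling factor per sample, apart from the added 1, but quantile normalization changes it. Its values are given by group, but only its differences between groups are read, since probes are not compared by level. The sign of a ratio therefore does not rank the 2 chains. Under quantile normalization the Dex change of ITGA5 over ITGB1 in macrophages was 0.93 in place of 1.36, that of ITGAL over ITGB2 was -0.32 in place of -0.61, and that of ITGA4 over ITGB1 was -0.37 in place of -0.63. ITGA5 over ITGB1 lay at -0.70 to -0.61 in Mono_Vehicle, -0.05 to 0.01 in Mono_Dex, 0.14 to 0.19 in Mac_Vehicle and 1.51 to 1.55 in Mac_Dex. These ranges did not overlap. Dex moved the mean ratio by 0.63 in monocytes and 1.36 in macrophages, with a pooled SD between samples of 0.03. ITGA4 over ITGB1 moved the other way, by -0.52 in monocytes and -0.63 in macrophages (pooled SD 0.09), and with vehicle it differed between macrophages and monocytes by -1.37, where the mean was -1.87 in Mono_Vehicle and -3.24 in Mac_Vehicle.

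ITGA6 over ITGB1 was higher in macrophages by 2.29 with vehicle and by 2.86 with Dex (pooled SD 0.15). Dex moved this ratio by -0.67 in monocytes, without overlap, and by -0.10 in macrophages, where the ranges overlapped.

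For the partners of ITGB2, the ratio of ITGAL fell by 0.80 with Dex in monocytes and by 0.61 in macrophages (pooled SD 0.09), with no overlap in either state. Between the states it differed by -0.38 with vehicle, without overlap, and by -0.19 with Dex, where the ranges overlapped and quantile normalization gave 0.11. ITGAM over ITGB2 and ITGAX over ITGB2 were higher in macrophages with vehicle, by 0.85 (pooled SD 0.06) and 0.66 (pooled SD 0.12). With vehicle, ITGAL was the only partner of ITGB2, and ITGA4 the only partner of ITGB1, whose ratio was lower in macrophages. With Dex in monocytes ITGAM over ITGB2 moved by -0.34 without overlap, and in macrophages by -0.03 with overlap, which quantile normalization turned to 0.19. ITGAX over ITGB2 moved by -0.19 in monocytes, with overlap, and by 0.10 in macrophages, where both Dex samples were above the vehicle samples.

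**Figure D4:**
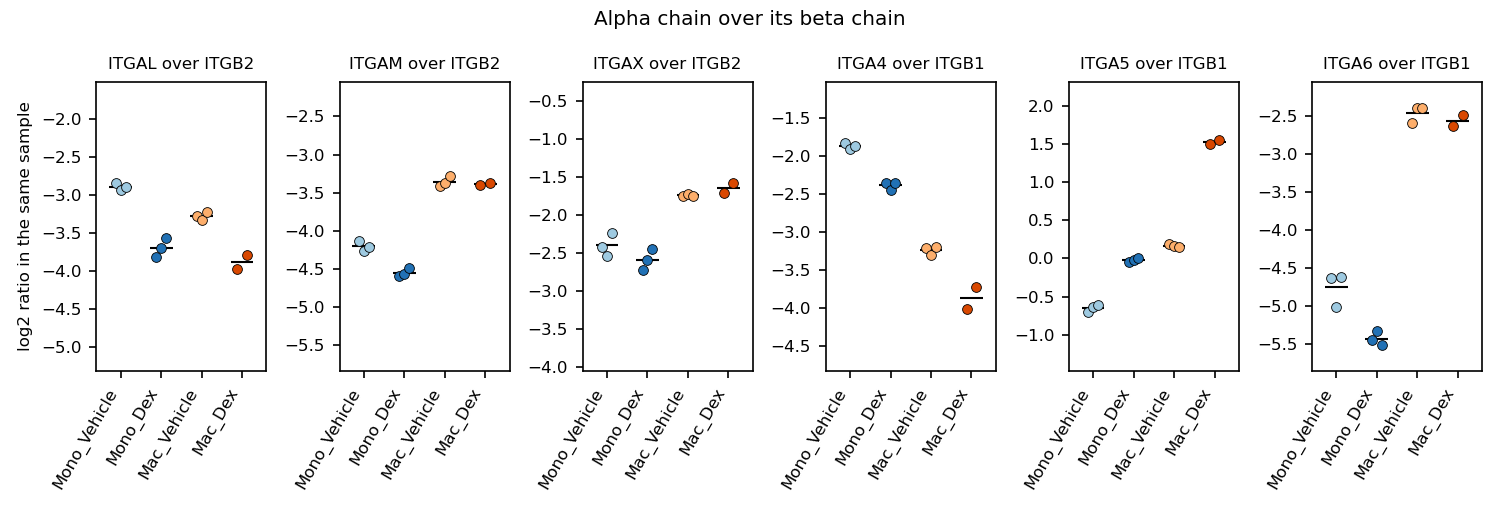
log2 ratio of each alpha chain to its beta chain in the same sample, by group, with bars for group means and axes of equal span. ITGA5 over ITGB1 rises across the 4 groups from -0.65 to 1.53, while ITGA4 over ITGB1 falls across them from -1.87 to -3.87.

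ITGAM and ITGAX are next to each other on chromosome 16 among the coding genes of GRCh38.p14, and ITGAL lies 36 coding genes away from ITGAM. Likeness of pattern was measured over the 4 group means of log2(value + 1), each gene centred on its own mean, as the root mean square difference among the 379 tested genes. The genes closest to ITGAX were FCER1G, a signalling chain of Fc receptors (0.06), and ITGAM (0.12). CYBB, a subunit of the phagocyte oxidase, was closest to ITGAM (0.06), with means of 300.01, 229, 3499 and 3136 units in Mono_Vehicle, Mono_Dex, Mac_Vehicle and Mac_Dex. The gene closest to ITGA5 was CEBPB, a transcription factor of the myeloid lineage (0.13), with means of 437, 699, 2164 and 6536 units. ITGA4 was closest to TNF, an inflammatory cytokine (0.08), with means of 381, 260, 531 and 310 units.

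The beta chains had the closest matches, ITGB1 with STAT2 (0.03) and ITGB2 with the kinase MAP4K4 (0.04). ITGAE was closest to ICOSLG (0.06). ITGAL and ITGA6 had no match as near, the closest being IFIH1 (0.19), an RNA sensor, and MX1 (0.17), an interferon-induced gene. With 4 group means per gene, these distances describe the order of genes and nothing more.

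Of 18 listed integrin ligands, 11 were in the table and 6 were tested. ICAM1, a ligand of the ITGB2 integrins, fell with Dex in both states. Its mean went from 27.1 to 7.85 units in monocytes (log2 change -1.69, SE 0.22, adjusted p = 3.15e-05), under the floor with Dex. In macrophages it went from 1358 to 255 units (-2.43, SE 0.25, adjusted p = 2.01e-06). SPP1 (osteopontin), a secreted ligand of several integrins, rose in monocytes from 138 to 242 units (0.82, SE 0.07, adjusted p = 5.65e-07) and had means of 75504 and 66450 units in macrophages (-0.18, adjusted p = 0.0809), with a difference of responses of -1.002 (SE 0.11, adjusted p = 1.01e-05).

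In monocytes, 3 of the 6 tested ligands were called higher with Dex and 2 lower, beside 16.9% and 22.2% of all genes, which became 2 and 1 with net counts before scaling or with a replicate block. In macrophages 0 were called higher by limma and 1 lower, beside 22.4% and 25.1% of all genes, and 3 of the 6 had an unadjusted p under 0.05. The 3 called higher in monocytes include FN1, the fibronectin gene, which was tested only because its macrophage groups lay above the floor. Its means of 3.07 and 9.74 units in monocytes were both under the floor, and that call was lost with a replicate block (0.80, adjusted p = 0.149). In macrophages FN1 had means of 54.9 and 163 units (1.55, SE 0.62, adjusted p = 0.0541). With vehicle all 6 were called higher in macrophages on the deposited scale, beside 65.2% of all genes. FN1 entered the test only through its macrophage groups, so its place in this count was set by the floor. C3 and ICAM3 turned lower under centring, quantile normalization and net counts.

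Of 30 listed signalling proteins and adaptors, 10 were in the table and all 10 were tested. FYN, a kinase of the Src family, fell with Dex in both states, by 0.76 (SE 0.11, adjusted p = 5.84e-05) and 0.79 (SE 0.12, adjusted p = 7.72e-05) on the log2 scale. PTK2, the focal adhesion kinase that acts after matrix binding, fell by 0.42 in monocytes (SE 0.09, adjusted p = 0.00243) and 0.59 in macrophages (SE 0.11, adjusted p = 0.000304). LCP2, an adaptor of immune receptors and ITGB2 integrins, rose by 0.72 (SE 0.06, adjusted p = 2.21e-07) and 0.60 (SE 0.07, adjusted p = 3.17e-06). With net counts before scaling, the macrophage call of LCP2 (0.38, adjusted p = 0.107) and the monocyte call of PTK2 (-0.49, adjusted p = 0.0907) were lost. In all, Dex raised 1 and lowered 2 of the 10 in monocytes, beside 16.9% and 22.2% of all genes, and raised 2 and lowered 2 in macrophages, beside 22.4% and 25.1%. For 0 of the 10 did the responses differ between the states by limma's test, and 1 had an unadjusted p under 0.05. With vehicle 8 were higher and 1 lower in macrophages on the deposited scale, beside 65.2% and 19.5% of all genes, which became 3 and 5 when samples were centred on their medians.

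Of 12 listed surface partners, such as tetraspanins, 7 were in the table and tested. PLAUR, the urokinase receptor, which associates with integrins, fell with Dex by 0.71 in monocytes (SE 0.12, adjusted p = 0.000197) and 0.76 in macrophages (SE 0.13, adjusted p = 0.000224). CD53, a leukocyte tetraspanin, rose by 0.63 (SE 0.05, adjusted p = 1.49e-07) and 0.31 (SE 0.05, adjusted p = 0.00032). CD81, a tetraspanin, rose by 0.51 and 0.28 on the deposited scale but turned to -0.11 and -0.20 under quantile normalization. In all, 3 were called higher and 3 lower in monocytes, beside 16.9% and 22.2% of all genes, and 2 higher and 2 lower in macrophages, beside 22.4% and 25.1%. CD82, a tetraspanin called lower in both states, lost both calls under centring, quantile normalization, net counts and a replicate block, with -0.08 in macrophages under centring (adjusted p = 0.455). All 7 were called higher in macrophages with vehicle and with Dex on the deposited scale, beside 65.2% and 61.7% of all genes. FCGR3A/B, an Fc receptor, entered the test only through its macrophage groups, so its place in this count was set by the floor. Its means were 1.43 and 2.47 units in monocytes and 69.4 and 73.0 in macrophages. CD82 did not pass when samples were centred on their medians (0.13, adjusted p = 0.138, with vehicle). For 3 of the 7 the Dex response was called lower in macrophages, beside 12.4% of all genes. They were CD9 (-0.67, adjusted p = 0.00169), CD53 (-0.32, adjusted p = 0.00557) and CD81, whose call was lost under centring (-0.15, adjusted p = 0.397), quantile normalization (-0.10, adjusted p = 0.532), net counts and a replicate block. The CD53 difference was lost with centring (-0.24, adjusted p = 0.13), net counts and a replicate block, which left 1 of the 7, and its macrophage rise with net counts before scaling (0.08, adjusted p = 0.771).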

How the data were processed

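RNA of 11 THP-1 samples (50 ng each, per the labels' protocols) was measured by NanoString nCounter, which counts colour-barcoded probes hybridized to transcripts without amplification. The deposited signal is linear and normalized; per the labels, nSolver was used for quality control, and the sources used here do not give its version, background rule or reference genes. On the values, 100% of low values examined lay within 0.1 of a step of a per-sample grid, so a value is a sample factor times a background-subtracted count. Whole counts were not recovered, so no count model was run and counting error is unknown. The table held 608 rows, 594 endogenous genes and 14 controls, and all 10 symbols matched RefSeq.

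Genes with a highest group mean of at least 20 units (379) were fitted as log2(value + 1) over all 4 groups with limma 3.58.1 in R 4.3.3 (lmFit, eBayes with trend). P-values were Benjamini-Hochberg adjusted over all 379 genes per comparison, and called under 0.05. Fold changes are ratios of group means, and log2 changes of low values are understated by the added 1. The labels number the samples but name no separate cultures; the p-values therefore cover only the spread among the 11 samples, which may be technical. The step was tested on simulated data. Alternatives were other scalings (median, quantile, a 16-gene housekeeping list, and, added after seeing the data, net counts before scaling), a pseudocount of 10, no floor, a floor of 50, no trend, only the 2 groups compared, a replicate block and each sample left out. Named genes were the 10 chains, the nearest patterns, and the most changed genes of the ligand, signalling and surface partner lists. The members, lists and tests were chosen with earlier results of these data known.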

Additional observations from a re-analysis of the deposited data

Results flagged for a closer look

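The Dex response of ITGA5 in macrophages exceeded that in monocytes by 0.78 on the log2 scale, by the interaction term of the limma fit (adjusted p = 7.96e-06), with both Mac_Dex samples above all Mac_Vehicle samples and all 3 Mono_Dex samples above all Mono_Vehicle samples. Under the other scalings the difference ran from 0.26 with quantile normalization (adjusted p = 0.0113) to 0.86, and over the alternatives its adjusted p ran from 1.24e-06 to 0.092, the highest with net counts before scaling.

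For ITGA6 the same difference of responses was 0.61 (adjusted p = 0.0202), with all 3 Mono_Dex samples below the Mono_Vehicle samples and overlapping macrophage groups. Its adjusted p ran from 0.00149 to 0.523 over the alternatives.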

How the results depend on the processing

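Over 5 comparisons and 9 chains, 856 of the chain values under other settings kept their sign and their side of the threshold. Another 56 changed sign, and calls lost or gained along with the sign are counted only there. Among values that kept their sign, 12 lost and 12 gained a call. The cause was not tested. Groups of 2 or 3 samples limit the precision, and no spread between cultures is known.

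With samples centred on their medians the all-gene median moved from -0.03 to 0.12 for Dex in monocytes and to 0.19 in macrophages, and the share of higher calls for the difference of responses from 52% to 63.5%. Net counts moved that share to 37%. The share of higher calls in macrophages with vehicle, 76.9%, became 45.6% with centring, 45% with quantile normalization, 66.3% with housekeeping scaling and 56.9% with net counts, and with Dex 77.5% became 46.3%, 43.4%, 64.4% and 48.7%.

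Signs turned as follows on the log2 scale. With centring, Dex in monocytes gave ITGAE 0.12 and ITGB1 0.12; Dex in macrophages gave ITGA6 0.14, ITGAM 0.057, ITGAX 0.18 and ITGB2 0.082; the state comparison gave ITGA4 -0.52 and ITGAE -0.15 with vehicle and -0.51 and -0.044 with Dex; and the difference of responses for ITGA4 was 0.0091. With quantile normalization, Dex in monocytes gave ITGAE 0.062 and ITGB2 -0.064, Dex in macrophages gave ITGB1 -0.12, the state comparison gave ITGA4 -0.58 and ITGAE -0.13 with vehicle and -0.52 and -0.052 with Dex, and the differences of responses were 0.053 for ITGA4 and -0.11 for ITGAL. Housekeeping scaling gave -0.028 for ITGA4 between the states with Dex, -0.0011 for ITGAE with Dex in macrophages, and differences of -8e-04 for ITGAE and -0.014 for ITGAL. Net counts gave ITGB2 -0.039 with Dex in monocytes, ITGAE -0.22 and ITGB1 -0.21 with Dex in macrophages, ITGA4 -0.27 between the states with vehicle, ITGA4 -0.49 and ITGAE -0.024 with Dex, and differences of -0.12 for ITGAE, -0.13 for ITGAL, -0.0067 for ITGAM, -0.035 for ITGAX and -0.11 for ITGB1. The difference for ITGAL was also -0.0084 with a pseudocount of 10.

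Counts moved beyond 1.5 times as follows. Genes called for Dex in monocytes went from 148 to 83 with net counts, and for the difference of responses from 98 to 46. Chains called for Dex in macrophages went from 3 to 6 with quantile normalization and 5 with housekeeping scaling, and for the difference from 2 to 0 with net counts. The ratio values that moved by more than the spread between samples were these. With a pseudocount of 10 the state difference of ITGAM over ITGB2 was 0.75 with vehicle and 1.04 with Dex, and that of ITGA6 over ITGB1 with Dex 2.63. Quantile normalization, chosen for the ratios after seeing the data, moved these as well. In the order Dex in monocytes, Dex in macrophages, state with vehicle and state with Dex, it gave -0.56, -0.32, -0.13 and 0.11 for ITGAL over ITGB2, -0.18, 0.19, 1.02 and 1.39 for ITGAM over ITGB2, -0.024, 0.39, 0.79 and 1.20 for ITGAX over ITGB2, -0.39, -0.37, -1.17 and -1.15 for ITGA4 over ITGB1, and 0.71, 0.93, 0.85 and 1.08 for ITGA5 over ITGB1. For ITGA6 over ITGB1 it gave -0.32 with Dex in monocytes and 2.66 for the state with vehicle.

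With each sample left out in turn, chains called for the difference ran from 1 to 3. Log2 changes that changed sign ran from -0.085 to 0.028 for ITGAE with Dex in monocytes; with Dex in macrophages from -0.041 to 0.083 for ITGAE, -0.11 to 0.025 for ITGAX and -0.036 to 0.056 for ITGB1; and for the difference from -0.19 to 0.055 for ITGA4, -0.021 to 0.11 for ITGAE, -0.077 to 0.11 for ITGAL and -0.0082 to 0.084 for ITGB1. The Dex change of the ratio in macrophages ran from -0.70 to -0.51 for ITGAL over ITGB2 and from -0.77 to -0.48 for ITGA4 over ITGB1, and the state difference with Dex from -0.29 to -0.10 and from -1.63 to -1.34, with ends set by the 2 Mac_Dex samples.

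The deviations of same-numbered samples correlated at 0.23 and 0.18 in the monocyte pairs and at -0.28 and -0.41 in the macrophage pairs, where the deviations of 2 Mac_Dex samples mirror each other by construction. Since not every pair was over 0.1, the numbers were not taken as pairs. A replicate block gave 49 genes and 1 chain called for the difference of responses, with the ITGAL difference at -0.079 and the ITGA6 difference at 0.59 (adjusted p = 0.194), and no call for ITGAM with Dex in monocytes (-0.29, adjusted p = 0.0986) or for ITGA4 between the states with Dex (0.29, adjusted p = 0.132).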
